A study of Mus musculus with 18 samples.

Results

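The 10 genes described here are ligands, nuclear factors and target genes of the Wnt pathway, and they were taken by symbol from the expression table of an RNA-seq time course in Nsd1-KO and WT mouse embryonic stem cells (mESCs). All 10 of the 10 symbols were present among the 20703 genes of the table. They comprise 4 ligands (Wnt3, Wnt3a, Wnt5b and Wnt8a), 3 members of the TCF/LEF family of DNA-binding factors (Tcf7, Lef1 and Tcf7l1) and 3 target and feedback genes (Axin2, Sp5 and Dkk1). The study asked how the loss of Nsd1, a methyltransferase for lysine 36 of histone H3, alters the expression program of mESCs during in vitro differentiation.

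The cells were E14 mESCs (an established mouse line, labelled as of blastocyst origin) in monolayer culture. WT cells and KO cells were sequenced at day 0, with LIF and a layer of mouse embryonic fibroblasts (MEFs), and at day 2 and day 4 after both were withdrawn. KO-1 and KO-2 are single-cell clones homozygous for a deletion of exon 5 of Nsd1, made by CRISPR-Cas9 in mESCs whose Nsd1 alleles carried a 3×Flag knock-in. The sources used here do not say whether the sequenced WT libraries carried the same tag. Each line had 2 biological replicates at each day, 18 libraries in all, so that 4 KO libraries stood against 2 WT libraries at each day. The libraries held from 9309874 to 23921193 counts on genes (median 15721347). The WT pair of day 2 was the shallowest, with 9309874 and 9356867 counts, and the shallowest KO library of that day held 14595828.

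Canonical Wnt signaling stabilizes beta-catenin, which enters the nucleus, binds TCF/LEF factors at their DNA motifs and activates target genes. Some of these targets encode feedback inhibitors of the pathway, such as Axin2 in the complex that degrades beta-catenin and Dkk1, a secreted antagonist of the LRP co-receptors. In mESCs, Wnt signals relieve repression of pluripotency genes by Tcf7l1, and in the epiblast of the embryo Wnt3 is required for the primitive streak, from which the mesoderm and definitive endoderm arise.

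Levels are given as normalized counts, that is, the counts recovered from the deposited values divided by the size factors of the authors. KO and WT were compared with limma on the deposited variance stabilized (VST) values, which are on a log2 scale, and the p-values were adjusted by the method of Benjamini and Hochberg. Following the thresholds of the study, a call required an adjusted p under 0.01 and a log2 fold change over 0.58 in either direction. The VST scale compresses differences between weakly expressed genes, so the fold changes on it are smaller than ratios of counts, and limma-voom on the recovered counts is given beside it. All adjusted p below come from limma or limma-voom with Benjamini-Hochberg adjustment over 20703 genes.

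Nsd1 itself was at 3374 and 3660.0 in WT, 837 and 710.5 in KO-1 and 689 and 635 in KO-2 at day 0. Every KO library lay below the WT libraries of its day, as the labels imply, although the counts are over all exons and not the deleted one alone. Its log2 fold changes over the 3 days were −1.69, −1.27 and −1.06.

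**Figure D1:**
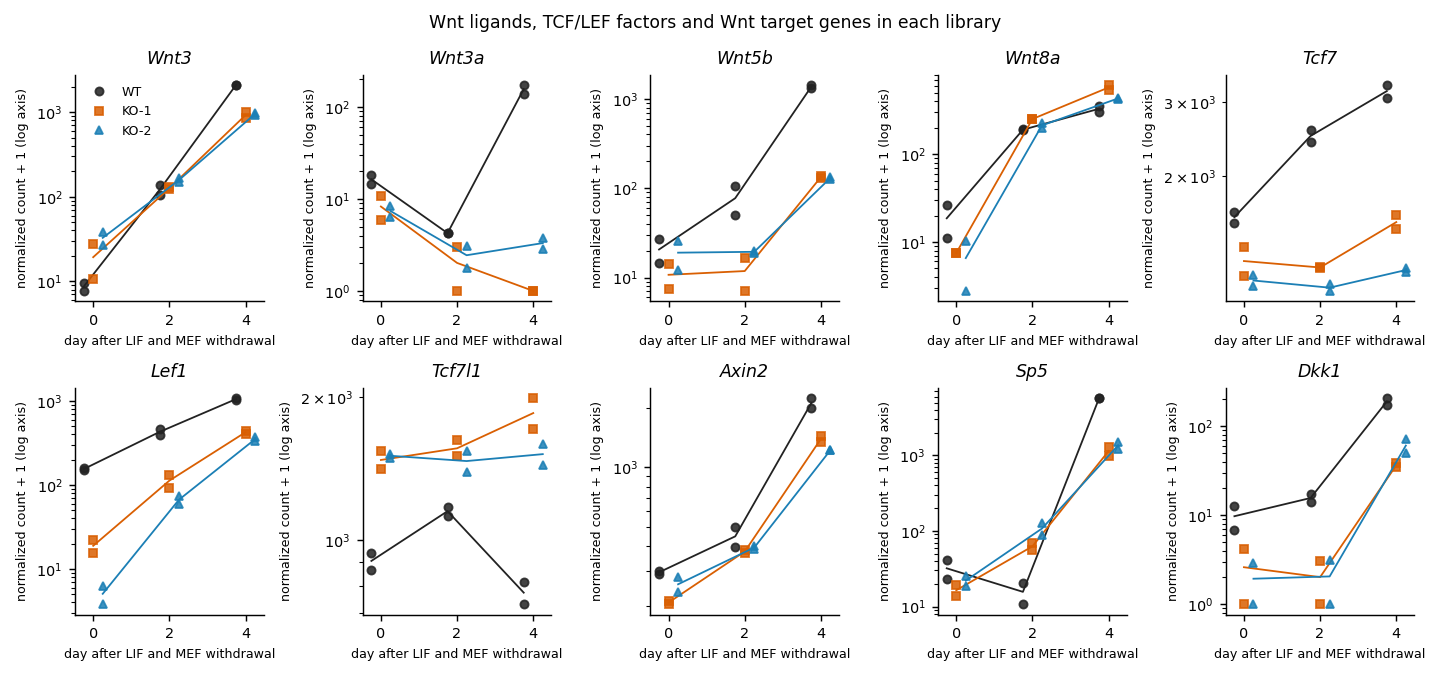
Normalized counts plus 1 (log axis, a separate scale for each gene) of the 10 genes against the day after LIF and MEF withdrawal. Each point is a library, circles WT, squares KO-1 and triangles KO-2, with lines through the means of the 2 replicates of a line. At day 4 the KO points lie below both WT points for 8 genes and above them for Wnt8a and Tcf7l1.

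At day 4, 6 of the 10 genes were called lower in KO (Wnt3, Wnt3a, Wnt5b, Sp5, Lef1 and Tcf7) and 1, Tcf7l1, was called higher, against 3.91% of all genes called lower and 3.67% called higher. The groups did not overlap for any of the 10 genes at that day, with KO lower for 8 and higher for 2, beside 25.9% and 23.9% of all genes. By limma-voom 8 were called lower and 2 higher at day 4, against 13.0% and 10.9% of all genes. The median log2 fold change of the 10 genes was −0.83 on the VST scale, and that of all genes was 0.00. At day 0 the only gene of the 10 to be called was Lef1, lower in KO, where 0.879% of all genes were called lower and 1.73% higher. At day 2, Lef1 and Tcf7 were called lower, where 2.37% of all genes were called lower and 4.01% higher. The groups did not overlap for 6 genes lower and 2 higher in KO at day 0, beside 24.3% and 23.1% of all genes, and for 5 lower and 3 higher at day 2, beside 31.4% and 26.2%. The exceptions that overlapped were Wnt5b and Sp5 at day 0, and Wnt3 and Axin2 at day 2. By limma-voom 1 gene was called higher and 1 lower at day 0, against 6.43% and 6.86% of all genes, and 1 higher and 4 lower at day 2, against 10.3% and 13.6%. The limma-voom fit moved the median of all genes at day 2 to −0.14, so the fold changes it gives for that day are read relative to that shift.

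**Figure D2:**
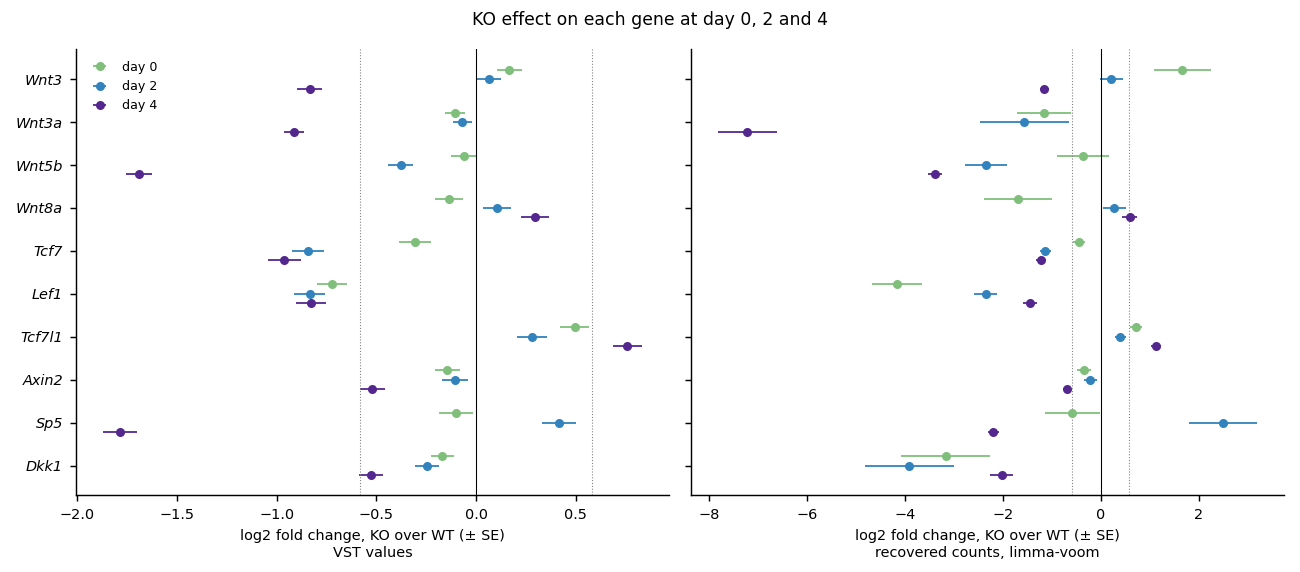
Log2 fold change of KO over WT with its SE for the 10 genes at day 0, 2 and 4, from the VST values (left) and from limma-voom on the recovered counts (right), with dotted lines at 0.58 in both directions. At day 4 Wnt5b and Sp5 lie furthest below 0 on the VST scale, at −1.69 and −1.79, and Tcf7l1 is above 0 at all 3 days.

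Promoter windows of 300 bases, from 250 before to 50 after an annotated start, were found in RefSeq (GRCm38.p6) for 9 of the 10 genes, 15 windows in all. They are given for the coordinates of that build only, since the authors counted on mm39. The windows were searched on both strands for CTTTGAT, a core of the TCF/LEF motif, which reads ATCAAAG on the other strand. Other forms of the motif were not searched, so a window without this string may still hold one. Of 32851 promoter windows, 1225 (3.73%) hold it, and 2 of the 15 windows of these genes do, that of Sp5 and the third of the 3 windows of Wnt5b. These windows are shown because Sp5 and Wnt5b had the largest fold changes on the VST scale at day 4, with the motif in capitals. Of the 3 windows of Wnt5b, only the one with the match is printed. By limma-voom the change at day 4 was −7.215 for Wnt3a, −3.39 for Wnt5b and −2.19 for Sp5. The windows of Wnt3 and Wnt3a, paralogous ligands, are printed as well, and neither holds CTTTGAT. Their KO levels at day 4 were 44.7% and 0.744% of WT. The windows lie at chr2:70474673-70474972 on the plus strand (Sp5), chr6:119449337-119449636 on the minus strand (Wnt5b), chr11:103773925-103774224 on the plus strand (Wnt3) and chr11:59290702-59291001 on the minus strand (Wnt3a), each printed 5′ to 3′ along its gene.
Sp5: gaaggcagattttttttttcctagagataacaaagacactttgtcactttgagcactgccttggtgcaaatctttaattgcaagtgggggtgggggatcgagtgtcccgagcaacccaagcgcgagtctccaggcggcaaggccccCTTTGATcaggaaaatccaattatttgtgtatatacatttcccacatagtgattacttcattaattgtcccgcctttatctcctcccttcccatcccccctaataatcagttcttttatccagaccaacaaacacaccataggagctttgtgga
Wnt5b: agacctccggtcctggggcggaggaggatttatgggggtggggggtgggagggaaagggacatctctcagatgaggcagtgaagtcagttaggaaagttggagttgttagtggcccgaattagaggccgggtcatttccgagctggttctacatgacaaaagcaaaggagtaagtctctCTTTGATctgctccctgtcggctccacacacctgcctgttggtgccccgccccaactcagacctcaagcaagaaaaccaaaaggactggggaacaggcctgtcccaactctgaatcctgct
Wnt3: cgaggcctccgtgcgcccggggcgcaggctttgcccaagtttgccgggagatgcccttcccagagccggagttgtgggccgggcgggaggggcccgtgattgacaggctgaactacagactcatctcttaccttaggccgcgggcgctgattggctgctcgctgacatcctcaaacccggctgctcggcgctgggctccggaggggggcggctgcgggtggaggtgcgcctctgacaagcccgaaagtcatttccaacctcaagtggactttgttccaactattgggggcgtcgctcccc
Wnt3a: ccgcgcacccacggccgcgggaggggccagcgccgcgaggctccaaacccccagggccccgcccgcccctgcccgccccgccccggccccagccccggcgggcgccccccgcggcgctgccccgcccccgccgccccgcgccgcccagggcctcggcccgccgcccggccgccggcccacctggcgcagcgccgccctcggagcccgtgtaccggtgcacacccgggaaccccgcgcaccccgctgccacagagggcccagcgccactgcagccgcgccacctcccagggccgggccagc
The motif begins 104 bases before the start of Sp5 and 71 before that of Wnt5b. A match is a string of letters and not a measured binding site. In base composition, the window of Wnt3a is 86.3% G or C with 45 CpG dinucleotides, that of Wnt3 is 65.7% with 24 and that of Sp5 is 45% with 6. The 3 windows of Wnt5b are 78% with 47, 53% with 4 and, for the one printed, 55% with 7. The median of all windows is 52.7% G or C with 7 CpG.

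Among the ligands, Wnt3, Wnt3a and Wnt5b were called lower in KO at day 4 and Wnt8a was not called on the VST scale. Wnt3 (ENSMUSG00000000125) is the ligand required for the primitive streak, and at day 4 it was at 2097 and 2106 in WT, 851 and 996 in KO-1 and 981 and 929 in KO-2. The KO libraries lay close together and below both WT libraries, at 44.7% of the WT mean. On the VST scale it changed by −0.84 ± 0.06 (SE; adjusted p = 5.68e-10), and by −1.16 with limma-voom. At day 0 the order was the opposite, with 6.71 and 8.63 in WT, 9.64 and 27.0 in KO-1 and 37.3 and 26.2 in KO-2, all 4 KO libraries above both WT libraries, and an adjusted p of 0.046 that did not pass the threshold. At day 2 the WT libraries, at 137 and 105, and the KO libraries, from 122 to 167, overlapped. By day 4 the WT mean was 274 times and the KO mean 37.5 times its own level at day 0, the former resting on 14 WT counts in all at day 0.

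Wnt3a (ENSMUSG00000009900), a paralog of Wnt3 expressed in the streak and tail bud, was at 138 and 173 in WT, 0 and 0 in KO-1 and 2.80 and 1.82 in KO-2 at day 4. These values stood for 137 and 274 counts in WT and for 0, 0, 4 and 2 counts in KO. The pooled KO counts were 0.757% of those of WT after scaling to depth (exact 95% counting interval 0.276% to 1.66%, which covers counting error only). Among all recovered counts from 1 to 10, 76.0% are even, and intervals on such low counts are too narrow if counts came in pairs, which was not tested. The log2 fold change was −0.91 on the VST scale (SE 0.05, adjusted p = 3.74e-12). At day 0 both genotypes held Wnt3a, at 13.4 and 17.3 in WT and from 4.91 to 9.64 in KO, with all KO libraries below both WT libraries and an adjusted p of 0.12. At day 2 no library of either genotype held more than 2 counts, so no fold is given for that day. WT was called higher at day 4 than at day 0 (0.66, adjusted p = 3.53e-09). KO was at 0.169 of its level at day 0 by day 4 (−0.15, adjusted p = 0.0045, under the fold threshold on the VST scale). Limma-voom called Wnt3a lower in KO over these days (−2.69, adjusted p = 0.0028). The KO fold rests on 26 counts in all at day 0 and 6 at day 4 and is imprecise.

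Wnt5b (ENSMUSG00000030170), mostly a noncanonical ligand, was at 1313 and 1436 in WT, 129.7 and 136 in KO-1 and 127 and 132 in KO-2 at day 4. The 4 KO libraries lay close together and stood at 9.55% of WT, a change of −1.69 ± 0.065 on the VST scale (SE; adjusted p = 1.73e-14) and of −3.39 by limma-voom. The difference was already present at day 2, with 104 and 48.6 in WT, 15.6 and 6.10 in KO-1 and 17.9 and 19.0 in KO-2, although the WT replicates lay far apart from each other. The change of −0.38 ± 0.065 at day 2 (SE; adjusted p = 6.99e-05) was under the fold threshold on the VST scale and was called by limma-voom (−2.35, adjusted p = 1.62e-04). At day 0 the groups overlapped, at 13.4 and 25.9 in WT and from 6.42 to 24.8 in KO.

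Wnt8a (ENSMUSG00000012282), an early posterior ligand of the epiblast, was at 301 and 354 in WT, 532 and 613 in KO-1 and 424 and 435 in KO-2 at day 4, with every KO library above both WT libraries. KO stood at 153% of WT, and the log2 fold change of 0.29 (SE 0.07, adjusted p = 0.0019) was under the fold threshold on the VST scale but was called higher by limma-voom (0.59, adjusted p = 0.0041). At day 2 the KO libraries, from 195 to 250.1, also lay above both WT libraries, at 191 and 186, with a log2 fold change of 0.11 that did not pass the test. At day 0 the values ran the other way, at 25.2 and 10.1 in WT and from 1.77 to 9.35 in KO, and did not pass the test either. In the KO libraries Wnt8a was called higher from day 0 to day 2 (0.99, adjusted p = 2.88e-11), as it was in WT (0.74, adjusted p = 3.18e-07).

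Set per kilobase of exon, so that genes can be compared, the 18 Wnt ligand genes in the table summed to 117 ± 8.40 normalized counts per kb in WT (SD, n = 2) and 282 ± 20.1 in KO (SD, n = 4) at day 0. The sums were 269 ± 38.7 and 281 ± 7.55 at day 2 and 3020.0 ± 78.7 and 834 ± 60.3 at day 4. The KO sum exceeded that of WT at day 0 and was below it at day 4 by more than the spread of the libraries, and at day 2 the ranges overlapped. Wnt7b, which is not among the 10 genes, made up 74.0% of the KO sum at day 0 and 29.7% of that of WT. At day 4, WT was led by Wnt6 with 919 ± 45.3 counts per kb, Wnt3 with 683 ± 2.13, Wnt5b with 518 ± 32.8, Wnt5a with 261 ± 20.3 and Wnt8a with 187 ± 21.4 (SD, n = 2), and the values of neighbours in this order did not overlap. KO was led by Wnt3 with 305 ± 21.2 and Wnt8a with 287 ± 51.1 counts per kb (SD, n = 4), whose ranges overlapped, followed at a distance by Wnt5b with 49.5 ± 1.37 and Wnt6 with 46.2 ± 6.29, which also overlapped. Wnt3 and Wnt8a together held most of the ligand sum in KO at day 4, with 36.7% and 34.3%, where they held 22.6% and 6.20% in WT.

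**Figure D3:**
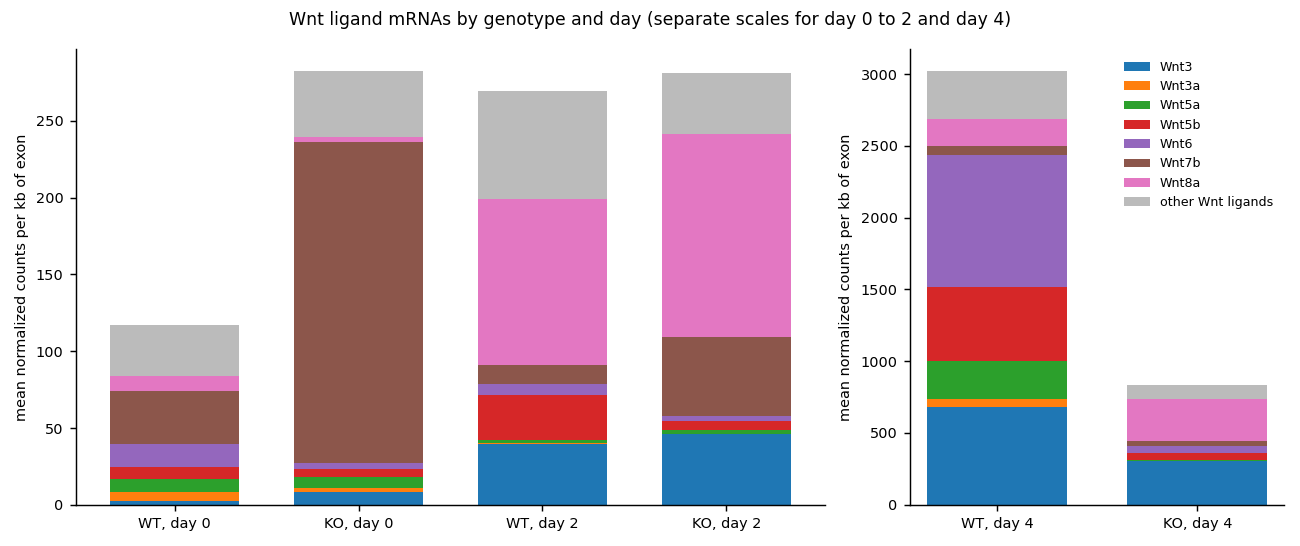
Mean normalized counts per kb of exon of the Wnt ligand genes, stacked, by genotype at day 0 and day 2 (left) and at day 4 (right, another scale), with n = 2 for WT and n = 4 for KO. The KO bar at day 0 is mostly Wnt7b, and at day 4 the WT bar reaches 3020.0 and the KO bar 834, of which Wnt3 and Wnt8a are the largest parts.

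Among the TCF/LEF factors, Lef1 and Tcf7 were lower and Tcf7l1 was higher in KO. Lef1 (ENSMUSG00000027985), which mostly activates Wnt targets when bound by beta-catenin, was at 158.5 and 148 in WT, 14.5 and 21.3 in KO-1 and 5.32 and 2.80 in KO-2 at day 0. The KO libraries were 7.15% of WT on average, and those of KO-2 were the lowest. This ratio is imprecise, since the KO libraries of day 0 held 3 to 26 counts each and 44 in all. On the VST scale Lef1 changed by −0.72 ± 0.08 at day 0 (SE; adjusted p = 4.04e-07), −0.84 at day 2 (adjusted p = 2.22e-08) and −0.83 at day 4 (adjusted p = 1.58e-08), called lower at all 3 days. At day 2 Lef1 was at 388 and 468 in WT, 132 and 91.5 in KO-1 and 58.5 and 72.7 in KO-2, and at day 4 it was at 1078 and 1022 in WT, 439 and 408 in KO-1 and 367.5 and 331 in KO-2. No KO library reached the WT libraries of its day, while the KO mean came to 20.7% of WT at day 2 and 36.8% at day 4. The steady VST differences and the narrowing ratio describe the same counts on 2 scales, and a test of the change between day 0 and day 4 was called by limma-voom but not on the VST scale (2.70, adjusted p = 5.90e-04; −0.11, adjusted p = 0.53 on the VST scale). Of the exon bases of Lef1, 13.7% are shared with Gm43352 on the other strand, which a kit that does not mark strand cannot separate. The shares were 4.56% for Tcf7l1 and 3.80% for Axin2, and 0 for the other 7 genes.

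Tcf7 (ENSMUSG00000000782), also called TCF1, was at 3305 and 3079 in WT, 1487 and 1611 in KO-1 and 1204 and 1174 in KO-2 at day 4. It was at 2408 and 2577 in WT, 1203 and 1209 in KO-1 and 1059.5 and 1098 in KO-2 at day 2. At both days all KO libraries were at less than the lower WT library, and the KO mean was 45.8% of WT at day 2 and 42.9% at day 4. The VST values differed by −0.84 ± 0.08 at day 2 (SE; adjusted p = 6.26e-08) and −0.96 ± 0.08 at day 4 (adjusted p = 5.63e-09), against −0.31 (adjusted p = 0.0074, under the fold threshold) at day 0. The day 0 libraries were at 1642 and 1544 in WT, 1349 and 1150.1 in KO-1 and 1088 and 1157 in KO-2, again without overlap. WT was called higher at day 4 than at day 0 (0.80, adjusted p = 5.00e-07), and in KO the change was 0.14 (adjusted p = 0.093). The KO gain in normalized counts from day 0 to day 4 was 11.5% of that of WT.

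Tcf7l1 (ENSMUSG00000055799), also called TCF3, acts mostly as a repressor of Wnt targets and pluripotency genes. At day 0 it was at 938.5 and 865 in WT, 1410.0 and 1534 in KO-1 and 1518 and 1487 in KO-2, and at day 4 at 815 and 730.5 in WT, 1709 and 1988 in KO-1 and 1592 and 1436 in KO-2. The gap was narrowest at day 2, with 1123 and 1174 in WT, 1619 and 1497 in KO-1 and 1538 and 1391 in KO-2. Every KO library exceeded both WT libraries at all 3 days, with a KO mean of 165%, 132% and 218% of WT. The log2 fold change was 0.49 (adjusted p = 3.19e-05) at day 0 and 0.28 (adjusted p = 0.0040) at day 2, both under the fold threshold, and 0.76 (SE 0.07, adjusted p = 3.91e-08) at day 4, where it was called higher. By limma-voom it was called higher at day 0 also (0.72, adjusted p = 6.34e-05). From day 2 to day 4 it changed by −0.37 on the VST scale in WT (adjusted p = 0.0014, under the fold threshold, and called lower by limma-voom with −0.58) and by 0.11 in KO (adjusted p = 0.22).

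Per kilobase of exon, Tcf7l1 made up 26.3%, 22.4% and 12.6% of the summed TCF/LEF transcripts (Tcf7, Lef1, Tcf7l1 and Tcf7l2) in WT at day 0, 2 and 4, and 44.6%, 44.2% and 41.3% in KO. Tcf7 made up 69.6%, 72.5% and 77.7% in WT and 53.0%, 49.9% and 50.2% in KO. The share of Lef1 was 2.00%, 3.71% and 7.64% in WT and 0.145%, 1.15% and 4.25% in KO. For these 3 genes no KO library lay within the WT range at any day. Tcf7l2 held 2.08%, 1.43% and 2.10% in WT and 2.17%, 4.82% and 4.26% in KO, and the groups overlapped at day 0 only.

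**Figure D4:**
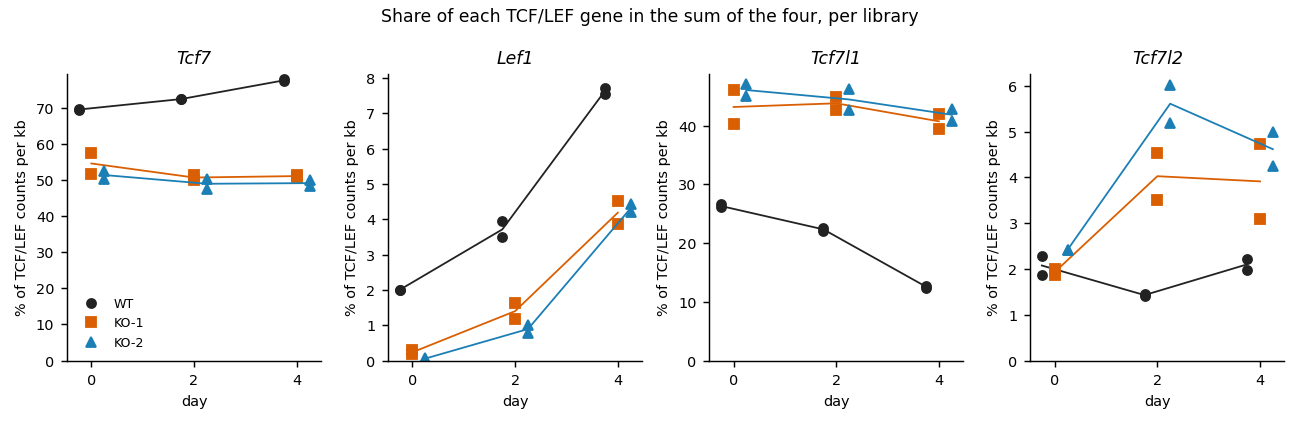
Share of each TCF/LEF gene in the sum of the 4 (percent of normalized counts per kb of exon) against the day, one point per library, with a separate vertical scale for each gene. Tcf7l1 is at 26.3% at day 0 and 12.6% at day 4 in WT and between 39.45% and 47.1% in the KO libraries, and Tcf7 is higher in WT at every day.

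Among the target and feedback genes, Sp5 was called lower in KO at day 4 on the VST scale, and Axin2 and Dkk1 were called lower by limma-voom but not on that scale. Sp5 (ENSMUSG00000075304) encodes a zinc finger factor that is a direct Wnt target in the streak. At day 4 it was at 5716 and 5687 in WT, 992 and 1289 in KO-1 and 1490.2 and 1223 in KO-2, so that KO reached 21.9% of WT. This was a change of −1.79 ± 0.085 on the VST scale (SE; adjusted p = 5.93e-13) and of −2.19 by limma-voom. At day 2 the order was reversed, with 19.6 and 9.72 in WT, 68.3 and 54.9 in KO-1 and 125 and 88.5 in KO-2 and every KO library above both WT libraries. The KO mean at day 2 was 575% of WT, an imprecise ratio that rests on 18 WT counts in all. The log2 fold change of 0.41 (adjusted p = 4.84e-04) was under the fold threshold on the VST scale and called higher by limma-voom (2.50, adjusted p = 0.0069). Within KO the log2 fold change from day 0 to day 2 was 0.38 (adjusted p = 2.16e-04, under the fold threshold, and called higher by limma-voom with 2.13), and in WT it was −0.14 (adjusted p = 0.29). At day 0 the groups overlapped, at 21.8 and 40.3 in WT and from 12.8 to 24.3 in KO.

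Axin2 (ENSMUSG00000000142), a negative feedback component whose transcript is a widely used readout of canonical Wnt signaling, was at 2238 and 1996 in WT, 1341 and 1445 in KO-1 and 1219 and 1225 in KO-2 at day 4. All KO libraries were below both WT libraries, at 61.7% of WT. Its change of −0.52 ± 0.06 (SE; adjusted p = 1.14e-06) was under the fold threshold on the VST scale and was called lower by limma-voom (−0.69, adjusted p = 1.80e-06). Without the WT replicate 2 of day 4, which was the lower of the pair, the log2 fold change was −0.585 and the gene was called. Within KO, Axin2 was called higher from day 2 to day 4 (1.04, adjusted p = 1.47e-11), as in WT (1.46, adjusted p = 2.05e-12). At day 0 Axin2 was at 288.5 and 299 in WT, 202 and 210.4 in KO-1 and 234 and 277 in KO-2, and at day 2 at 499 and 395.5 in WT, 380.3 and 369 in KO-1 and 400.2 and 385 in KO-2. The KO means were 78.6% and 85.8% of WT and did not pass the test at either day, and at day 2 one KO library lay above the lower WT library.

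Dkk1 (ENSMUSG00000024868) was at 171 and 206 in WT, 33.8 and 37.2 in KO-1 and 70.0 and 49.2 in KO-2 at day 4, at 25.2% of WT, with no overlap. A change of −0.53 ± 0.06 (SE; adjusted p = 3.09e-07) was under the fold threshold on the VST scale and was called lower by limma-voom (−2.02, adjusted p = 5.94e-07). Within KO it was 37.4 times its level at day 0 by day 4 and within WT 21.5 times, both from levels near the floor. These folds rest on 4 KO counts and 18 WT counts in all at day 0 and are imprecise. At day 0 the WT replicates held 14 and 4 counts and the KO libraries 2, 0, 0 and 2, and at day 2 there were 8 and 10 counts in WT and 0, 2, 0 and 2 in KO. The pooled KO counts were 10.4% of WT at day 0 (exact 95% counting interval 2.56% to 31.5%) and 6.45% at day 2 (1.59% to 19.6%).

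Most of these genes changed over the days in WT. The parts of differentiation and of LIF and MEF withdrawal in these changes were not tested. From day 0 to day 4, 9 of the 10 were called higher in WT, all but Tcf7l1, against 13.8% of all genes called in either direction. In KO, 6 were called higher over the same days (Wnt3, Wnt5b, Wnt8a, Axin2, Sp5 and Lef1), against 6.50% of all genes. By limma-voom 9 were called higher in WT over these days (34.7% of all genes called), and in KO 7 were called higher and 1, Wnt3a, lower (27.5% of all genes). From day 0 to day 2, Wnt3, Wnt8a and Lef1 were called higher in WT (6.68% of all genes called) and Wnt8a in KO (3.20%), where limma-voom called 6 in WT and 5 in KO, with 19.5% and 16.3% of all genes called. From day 2 to day 4, 7 genes were called higher in WT (8.76% of all genes), all but Wnt8a, Tcf7 and Tcf7l1, and 5 in KO (1.49%), namely Wnt3, Wnt5b, Axin2, Sp5 and Lef1. By limma-voom 7 were called higher in WT over this step and 1, Tcf7l1, lower (24.1% of all genes called), and in KO Wnt8a and Dkk1 were called higher in addition (10.3%). The gain of KO in normalized counts from day 0 to day 4 was 159.9% of that of WT for Wnt8a. It was 59.0% for Axin2, 43.7% for Wnt3, 41.9% for Lef1, 25.8% for Dkk1, 21.7% for Sp5, 11.5% for Tcf7 and 8.66% for Wnt5b. For Wnt3a and Tcf7l1 this share is negative, since the mean of Wnt3a at day 4 was 10.1 times that of day 0 in WT and 0.169 times in KO, and that of Tcf7l1 0.857 times in WT and 1.13 times in KO.

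Whether the difference between KO and WT itself changed with the day was tested in the same fit. Between day 0 and day 4 it became more negative for 5 of the 10 genes (Wnt3, Wnt3a, Wnt5b, Sp5 and Tcf7), where 6.93% of all genes were called in either direction. The change was −1.69 (SE 0.12, adjusted p = 9.86e-10) for Sp5, −1.63 (SE 0.09, adjusted p = 2.63e-11) for Wnt5b and −1.002 (SE 0.09, adjusted p = 1.86e-08) for Wnt3. Between day 2 and day 4 it became more negative for Wnt3, Wnt3a, Wnt5b and Sp5 (6.41% of all genes called). On the VST scale this change was largest for Sp5, with −2.20 (SE 0.12, adjusted p = 2.16e-11). By limma-voom it was largest for Wnt3a, which was near the floor at day 2, with −5.66 against −4.69 for Sp5. Limma-voom did not call Sp5 between day 0 and day 4 (−1.61, adjusted p = 0.042) or Wnt5b between day 2 and day 4 (−1.04, adjusted p = 0.095), and it called a change in the positive direction for Lef1 between day 0 and day 4 and for Tcf7l1 between day 2 and day 4 (0.73, adjusted p = 0.0017). Between day 0 and day 2 it was called for 0 of the 10 on the VST scale and for 1, Tcf7, by limma-voom. Of all genes, 3.19% were called on the VST scale and 7.34% by limma-voom. By limma on the VST values, 4 of the 10 had an unadjusted p under 0.05, beside 6929 of all 20703 genes. For the changes to day 4, limma-voom called 14.9% of all genes from day 0 and 13.8% from day 2.

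The KO libraries of day 4 were also set beside the WT libraries of day 2. Of the 10 genes, 4 were higher in KO at day 4 (Wnt3, Wnt8a, Axin2 and Sp5) and 1, Tcf7, was lower, against 6.55% of all genes called in either direction. Sp5 was the most different, at 1249 ± 205 normalized counts in KO at day 4 (SD, n = 4) and 14.6 ± 6.95 in WT at day 2 (SD, n = 2), with a log2 fold change of 2.18 (adjusted p = 2.63e-13). Lef1, with a log2 fold change of −0.07 (SE 0.08), and Wnt3a, with −0.08 (SE 0.05), did not pass the test.

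The KO clones were set against each other with 9 groups of line and day in the fit. By limma on the VST values, 0 of the 10 genes were called at any day, and limma-voom also called 0. On the successive days, 1, 2 and 8 of the 10 had an unadjusted p under 0.05 by limma on the VST values. The same held for 3057, 2539 and 5234 of all 20703 genes. Of all genes, 0.0290%, 0.0435% and 0.251% were called on the VST scale and 0.159%, 0.232% and 2.23% by limma-voom. At day 4 the clones differed in Tcf7 by 0.27 (adjusted p = 0.0062, under the fold threshold), in Wnt8a by 0.22 (adjusted p = 0.025) and in Tcf7l1 by 0.21 (adjusted p = 0.036), each with KO-1 higher. Of the other 5 genes with an unadjusted p under 0.05 at that day, Lef1 (0.13) and Axin2 (0.13) had KO-1 higher, and Sp5 (−0.18), Wnt3a (−0.12) and Dkk1 (−0.14) had KO-2 higher. Nsd1 was higher in KO-1 at that day by 0.41 (adjusted p = 0.0029, under the fold threshold on the VST scale), and limma-voom called it (0.66, adjusted p = 0.0015).

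The other genes of the pathway were taken from lists by role that hold 95 genes of the table besides the 10. Of these, 5 were called higher and 4 lower at day 0, 8 and 3 at day 2, and 11 and 17 at day 4, with a median log2 fold change of 0.02, 0.01 and −0.11. Of all genes, 1.73% were called higher and 0.879% lower at day 0, 4.01% and 2.37% at day 2, and 3.67% and 3.91% at day 4. By limma-voom 11 of the 95 were called higher and 11 lower at day 0, 17 and 20 at day 2, and 15 and 34 at day 4. Of all genes, limma-voom called 6.43% higher and 6.86% lower at day 0, 10.3% and 13.6% at day 2, and 10.9% and 13.0% at day 4. The order of higher and lower calls at day 2 depended on the scale, for the 95 as for all genes. Counts by list include the 10 genes where a list holds them, and levels are means ± SD over 2 WT and 4 KO libraries. Among the 18 ligand genes, 7 were called lower and 0 higher at day 4, of which Wnt4, Wnt5a, Wnt6 and Wnt10a are not among the 10, and limma-voom called 14 lower and 1 higher. Wnt5a, a noncanonical ligand, had 2040.4 ± 158 normalized counts in the WT pair and 44.3 ± 6.19 in the KO libraries, with a log2 fold change of −2.49. Wnt6 was at 2015 ± 99.3 in WT and 101 ± 13.8 in KO, with −2.21. Wnt7b was called higher in KO at day 0 (1.28, with 169 ± 17.3 in WT and 1023 ± 52.1 in KO) and at day 2 (0.62). Of the 2 secretion genes, Wls, which carries Wnt proteins to the cell surface, was called lower at day 4 (−0.92). Limma-voom called Wls lower at day 2 also (−1.46, adjusted p = 4.93e-07) and the other, Porcn, lower at day 0 (−0.91, adjusted p = 9.60e-06). Both were under the fold threshold on the VST scale at those days.

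Of the 16 receptors and co-receptors, 4 were called higher at day 4 (Fzd5, Fzd8, Fzd9 and Ror1) and 1, Ptk7, lower, and limma-voom called 6 higher and 2 lower. Ror1, a receptor for noncanonical ligands, had the largest change, with 70.6 ± 14.5 normalized counts in the WT pair and 732 ± 194 in the KO libraries (1.31 on the log2 scale). Fzd8 changed by 1.01 and Ptk7 by −0.83 at day 4. At day 2, Fzd10 and Ror1 were called higher and Fzd2 and Fzd7 lower, and at day 0, Fzd7 and Ror2 were called lower. By limma-voom 3 receptors were called higher and 4 lower at day 2, and 2 higher and 2 lower at day 0. Of the 9 R-spondins and their receptors and ligases, Lgr4, an R-spondin receptor that raises Wnt sensitivity, was called higher at all 3 days (1.20, 1.17 and 1.20). Rspo3, a secreted enhancer of Wnt signaling, was at 753 ± 32.9 in WT and 13.2 ± 4.78 in KO at day 4, a log2 fold change of −1.73, and Rnf43, a ligase that removes Frizzled receptors and is itself a Wnt target, was called lower at that day (−0.64). Rnf43 was under the fold threshold on the VST scale at day 0 (−0.47, adjusted p = 1.51e-06) and day 2 (−0.42, adjusted p = 2.77e-06), and limma-voom called it lower at all 3 days (−4.60, −4.56 and −4.98). In this list limma-voom called 3, 5 and 3 genes lower on the successive days, against 0, 0 and 2 on the VST scale, with Rspo4 among them at each day, and 1, Lgr4, higher at each.

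Of the 15 secreted and membrane inhibitors, 4 were called higher at day 4 (Sfrp1, Sfrp2, Sfrp4 and Notum) and 1, Frzb, lower. By limma-voom 5 were called higher and 5 lower at that day, so the excess of higher calls held on the VST scale only. Sfrp2, which binds Wnt proteins outside the cell, was at 126 ± 12.6 normalized counts in the WT pair and 1185 ± 120 in the KO libraries (1.56 on the log2 scale). Notum, an enzyme that removes the lipid of Wnt proteins, was called higher at all 3 days (1.00, 0.96 and 0.63), and at day 2 it was at 7.32 ± 5.77 in WT and 226 ± 26.2 in KO. Frzb changed by −1.20 at day 4. Sfrp2 was called higher at day 0 as well, and Sfrp4 at day 2. By limma-voom 4 of this list were called higher and 1 lower at day 0, and 2 and 4 at day 2. On the VST scale 2 were called higher and 0 lower at each of these days.

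Of the 16 genes of the Dishevelled and destruction complex list, limma on the VST values called 0 at day 0 and at day 4 (10 and 6 at an unadjusted p under 0.05, and 1 and 3 called by limma-voom), and Csnk1a1, the kinase that primes beta-catenin for degradation, was called lower at day 2 (−0.72). At day 2 only 3 of the 16 had a log2 fold change below 0, beside 11041 of all 20703 genes, and 10 had an unadjusted p under 0.05. Of all genes, 8150, 10823 and 9142 had an unadjusted p under 0.05 on the successive days. Limma-voom called 4 of the 16 higher and 2 lower at day 2, where it called 10.3% of all genes higher and 13.6% lower. Of the 14 TCF/LEF factors and partners, the co-repressor Tle4 was called higher at day 0 (0.64) and day 4 (0.61), and Tle5, a short member of the same family, lower at day 0 (−1.07) and day 4 (−0.62). By limma-voom 2, 3 and 2 of this list were called higher and 3, 3 and 5 lower on the successive days, against 1, 0 and 2 higher and 2, 2 and 3 lower on the VST scale. Over all genes, limma-voom called 6.43%, 10.3% and 10.9% higher and 6.86%, 13.6% and 13.0% lower on these days.

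Of the 15 target and feedback genes, 8 were called lower at day 4, of which Sp8, Cdx1, Cdx2, T, Myc, Fgf8 and Msgn1 are not among the 10, and 1, Cdx4, was called higher, where limma-voom called 10 lower and 1 higher. T, the T-box factor of the streak and nascent mesoderm, was at 16248 ± 272 normalized counts in the WT pair and 140 ± 90.4 in the KO libraries (−4.80 on the log2 scale). Msgn1, a factor of the presomitic mesoderm, was at 1093 ± 110 in WT and at 0 in all 4 KO libraries, with a log2 fold change of −2.36 on the VST scale. Sp8, a paralog of Sp5, changed by −1.48. At day 2, Cdx4 and Ccnd1 were called higher in KO, and at day 0, Cdx1 was called lower.

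**Figure D5:**
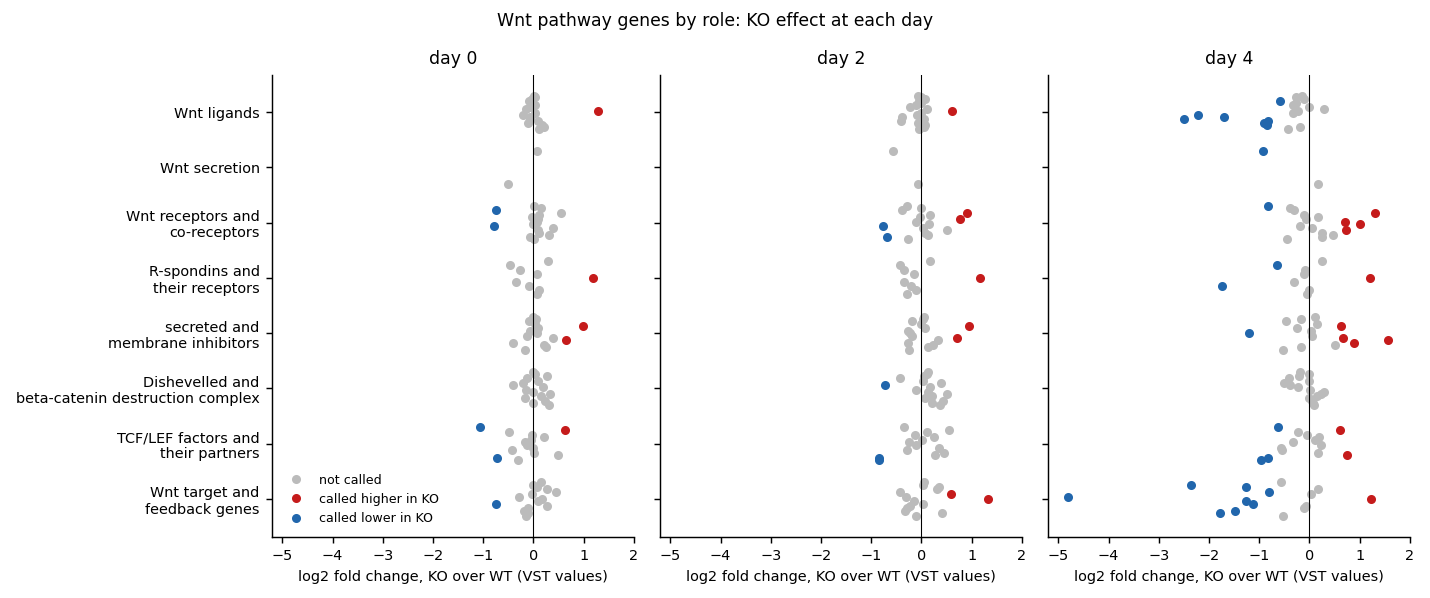
Log2 fold change of KO over WT (VST values) for each Wnt pathway gene, grouped by role, at day 0, 2 and 4, with genes called higher in red, called lower in blue and the rest in grey. At day 4 the called ligands all lie on the lower side, 8 of 9 called target and feedback genes do so too, and the receptors and inhibitors hold 8 genes called higher.

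Markers of cell types moved with these differences, and since the libraries are of bulk RNA, fewer cells of a type and less RNA per cell cannot be told apart. At day 4 the 8 markers of the primitive streak and early mesoderm summed to 33045 ± 335 normalized counts in the WT pair and 1244 ± 274 in the KO libraries (mean ± SD), with 7 of 8 called lower, T the most abundant and Msgn1 at 0 in KO. Their sums at day 0 were 163 ± 3.72 and 106 ± 8.33 and at day 2 367 ± 3.21 and 253 ± 11.6, with 0 called at either day on the VST scale (0 at day 0 and 2 at day 2 by limma-voom). T, Msgn1 and Fgf8 stand in the target list as well. Of the 7 markers of embryonic stem cells, 5 were called higher and 1, Tdgf1, lower in KO at day 4, with sums of 16462 ± 305 in WT and 19458 ± 886 in KO. At day 2, 5 were called higher and 1, Pou5f1, lower, with a median log2 fold change of 1.36 and sums of 18271 ± 772 and 24802 ± 1831. At day 0 their sums were 76569 ± 1210 and 76564 ± 1432, with 0 called by limma on the VST values or by limma-voom, although 6 of the 7 had an unadjusted p under 0.05. These ran in both directions, as in Zfp42 (0.34, adjusted p = 4.77e-05) and Pou5f1 (−0.39, adjusted p = 0.0013). The part of the streak and stem cell markers in the Wnt differences of day 4 was not tested.

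The 9 fibroblast markers found in the table, which the feeder layer of day 0 would carry, summed to 2872 ± 51.6 in WT (SD, n = 2) and 5170 ± 450 in KO (SD, n = 4) at day 0, with 3 called higher, Col1a1 the most abundant and Lum at 0 in both genotypes. At day 4 they summed to 2522 ± 109 and 1141 ± 372, with 1 called lower on the VST scale and 4 by limma-voom. The neuroectoderm markers, led by Nes, summed to 825 ± 78.8 and 1057 ± 169 at day 0, 4726 ± 219 and 1535 ± 370 at day 2 and 5673 ± 311 and 2774 ± 608 at day 4, with Hes5 at 0 in WT at day 4. The lower sum in KO at day 4 was carried by Nes (−1.39, called lower), whereas 5 of the 6 markers had positive log2 fold changes, with a median of 0.18 for the list, and Sox1 was called higher (1.72). The extraembryonic endoderm markers, led by Lamb1, summed to 18266 ± 465 in WT and 9902 ± 821 in KO at day 4, where 2 of the 7, Col4a1 (−1.57) and Sparc (−1.01), were called lower, the median was −0.18 and Lamb1 itself was not called (−0.18). Afp was at 0 in WT at day 2. The part of these cell types in the day 0 and day 4 values of the Wnt genes was not tested.

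Over the 18 libraries, the gene whose VST values were most like those of Wnt3, among 13145 genes with a mean of at least 20 normalized counts, was Axin2 (Pearson r 0.986), followed by Tpm1. These coefficients describe 6 groups of libraries that share their days and genotypes and are given without a test. The genes most like Sp5 were Synpo2l (0.990), Cited1 and Msx1, and Msx1 (0.978) was also second for Axin2, between Wnt3 and Pde10a. Wnt5b was followed most closely by Ltb (0.994), Chst7 and Rtl8b, and Wnt3a by Plxna2 (0.981), Cabp1 and Litaf. For Wnt8a they were Foxo4 (0.986), Sema4c and Pgap4, and for Dkk1 Krt8 (0.979), Krt18 and Clic1. For Lef1 they were Ccnjl (0.984), Mthfsd and Endov, and for Tcf7 Ap1m2 (0.975), Plac8 and Zhx2. Tcf7l1 had the lowest leading value, with Myh6 (0.937), Rps6kl1 and Sox13. Among the 10 genes themselves, Wnt3, Axin2 and Sp5 were the most alike (0.966 to 0.986), the coefficient of Wnt3a with Wnt8a was −0.02, and those of Tcf7l1 with Wnt3a and with Tcf7 were −0.82 and −0.72.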

How the data were processed

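RNA of E14 mESCs was sequenced with a polyA kit that does not mark strand. The authors trimmed reads with Trim Galore 0.6.7, aligned them to mm39 with STAR 2.7.11a, counted them with featureCounts 2.0.6, removed genes with low average counts and deposited DESeq2 1.42.0 VST values, which are on a log2 scale. The lowest deposited value, 8.359, stands for a count of 0. Inverting the transformation from that floor gave whole counts (tolerance 0.01) for 100% of values, with the size factors of the authors. Of the counts from 1 to 10, 76.0% were even, for a reason not found. No gene had a mean count under 1.06.

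Fits used R 4.3.3 with limma 3.58.1 with a trended prior variance, with genotype by day as 6 groups, the clones being pooled. Limma-voom used the recovered counts. The DESeq2 test of the study was not run, and limma on the deposited values, with limma-voom beside it, took its place. Replicates are biological per the labels, and the study calls those of day 0 mESCs independent. Whether they came from separately kept cultures is not stated, so p-values measure the spread between these libraries. With 4 libraries against 2, single genes were compared only in the fits across all genes. The genes and pathway lists were chosen with earlier results of these data known. Named genes are the 10, Nsd1, the list genes called at any day with values for up to 3 per list, the 3 genes most like each of the 10 (1 of which is not reported here), and from each marker list its most abundant gene and those at 0. Other list and marker genes given with values, and the promoter windows, were chosen after values were seen. Exon lengths came from GENCODE M21 (GRCm38), with 20592 of 20703 genes (99.5%) matched by identifier. Sums per kb divide by exon length, not by expressed isoform. Steps were tested on simulated counts with 200 genes changed 4-fold in KO at day 4. The VST fit recovered 125 of them and limma-voom 184, with 0 false calls in each. Of the 100 changed genes with a mean over 300 normalized counts, the VST fit recovered 99. Alternatives were limma-voom, log2(normalized count + 1), each day alone, clones apart or used singly, quantile normalization, median centring, removal of genes under the 25th percentile of the mean, no trend, a replicate block, an adjusted p under 0.05 without a minimum fold, each library left out and, added after seeing the data, counts thinned to one depth. Figures were drawn with Python 3.11.15 and matplotlib 3.10.9.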

Additional observations from a re-analysis of the deposited data

Results flagged for a closer look

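The difference between KO and WT itself changed with the day for 5 of the 10 genes, by the interaction terms of limma on the VST values with Benjamini-Hochberg adjustment. Between day 0 and day 4 it changed by −1.002 for Wnt3, −0.81 for Wnt3a, −1.63 for Wnt5b, −1.69 for Sp5 and −0.66 for Tcf7, on the log2 scale, where 6.93% of all genes were called in either direction. Between day 2 and day 4 it changed by −0.90 for Wnt3, −0.84 for Wnt3a, −1.31 for Wnt5b and −2.20 for Sp5, where 6.41% of all genes were called. By limma-voom the change between day 0 and day 4 was called for Wnt3, Wnt3a, Wnt5b and Tcf7 but not for Sp5 (−1.61, adjusted p = 0.042), and that between day 2 and day 4 for Wnt3, Wnt3a and Sp5 but not for Wnt5b (−1.04, adjusted p = 0.095), with 14.9% and 13.8% of all genes called. Limma-voom also called changes in the positive direction, for Lef1 between day 0 and day 4 (2.70, adjusted p = 5.90e-04) and for Tcf7l1 between day 2 and day 4 (0.73, adjusted p = 0.0017). Sp5 was above WT in all 4 KO libraries at day 2 and below WT in all 4 at day 4. In 30 groups of 4 KO libraries, 1 for each gene and day, no library stood apart from the other 3 by the ratio of Dixon (critical value 0.829), a test that chance passes in about 1 of 20 groups.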

How the results depend on the processing

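Of 930 values for single genes (10 genes at 3 days under 31 alternatives), 0 changed sign, 894 stayed on the same side of the thresholds, 35 came to pass them and 1 no longer did, Lef1 at day 4 on log2(normalized count + 1), with −1.45 and an adjusted p of 0.017. The counts of calls moved with the scale, and for most of them furthest with the looser threshold. With limma-voom, log2(normalized count + 1), limma-voom on thinned counts and an adjusted p under 0.05 with no minimum fold, in that order, the genes called between KO and WT were 2752, 2667, 2676 and 6149 at day 0 in place of 541, 4949, 5176, 5113 and 9515 at day 2 in place of 1321, and 4957, 4602, 4381 and 7700 at day 4 in place of 1569. In the same order, of the 10 genes 2, 4, 2 and 5 were called at day 0 in place of 1, and 5, 5, 5 and 6 at day 2 in place of 2. Within WT from day 0 to day 2 they were 6, 5, 6 and 8 in place of 3, and within KO 5, 6, 5 and 6 in place of 1. These counts rose together with those over all genes, of which from 19.5% (limma-voom) to 40.6% (looser threshold) were called for that step in WT in place of 6.68%, and from 15.1% (thinned counts) to 35.7% (looser threshold) in KO in place of 3.20%. For the change of the KO effect between day 0 and day 2, limma-voom called 1, log2(normalized count + 1) 2, KO-2 alone 1 and the looser threshold 3, in place of 0, with 7.34%, 9.25%, 4.84% and 21.7% of all genes called in place of 3.19%. The looser threshold called 8 in place of 5 between day 0 and day 4, 7 in place of 4 between day 2 and day 4, 8 in place of 5 for KO at day 4 against WT at day 2, and 3 in place of 0 between the clones at day 4, with 27.0%, 29.1%, 46.5% and 12.8% of all genes called, and log2(normalized count + 1) called 1 between the clones at day 0 (0.155% of all genes). The cause was not tested. Of the calls at day 0, 66.4% were higher in KO on the VST scale and 48.4% by limma-voom, and at day 2 62.9% and 43.2%, with 73.9% after median centring.

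Leaving out each library in turn gave 526 to 559 genes at day 0, 1190 to 1431 at day 2 and 1544 to 1618 at day 4. Of the 10 genes it gave 7 to 8 at day 4, 2 to 3 within WT from day 0 to day 2, 4 to 5 within KO from day 2 to day 4 and 4 to 5 for KO at day 4 against WT at day 2, and the other counts of the 10 genes did not move. The replicate block gave 540, 1315 and 1568 genes at day 0, 2 and 4, and 1, 2 and 7 of the 10. The rule for pairing by replicate number, every pair over 0.1, was not met, since the deviations of same-numbered libraries correlated between −0.46 and 0.439 over 9 pairs of same-day groups, and 4 of the 9 were over 0.1. At day 2 all 3 pairs were over 0.1 (0.337 to 0.439), whereas at day 0 none was and at day 4 1 was. Precision is lowest for Wnt3a at day 2 and in KO at day 4, and for Dkk1 in KO at day 0 and day 2. Each library held 0 to 4 counts there, although the KO libraries of day 2 were deeper than those of WT. Precision is also low in KO at day 0 for Lef1 (3 to 26 counts per library), Wnt8a (2 to 10) and Wnt5b (4 to 28), among others.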
